A study of Homo sapiens with 4 samples.

Results

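Confluent and sparse HEK293 cells that had received siRNA against CDC73 (written hCdc73 in the sample labels) were compared by subtracting the sparse array from the confluent array. The comparison was taken from the sample labels and uses 2 of the 4 arrays of the series, 1 per group. HEK293 is an established human line of embryonic kidney origin. The groups were confluent cells with CDC73 siRNA, sparse cells with CDC73 siRNA, confluent cells with control siRNA and sparse cells with control siRNA. All cells received 100 pmol siRNA and were replated 24 h later, onto a 35 mm dish for confluence or a 100 mm dish for sparse growth, and RNA was taken after a further 24 h. Density therefore differs together with the dish, and each group is 1 dish of a single cell line. Whether they stem from 1 transfection or several is not stated in the labels.

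CDC73, also called parafibromin, belongs to the PAF1 complex, a companion of transcribing RNA polymerase II with roles in elongation and histone modification. Cells that touch their neighbours turn on the Hippo kinases, which keep the coactivators YAP1 and TAZ out of the nucleus and lower their targets, among them CCN2 and CCN1. Crowded cells also share less medium and growth factor per cell, and proliferating cells characteristically spend much of their transcription on ribosome production, nucleotide synthesis and DNA replication.

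The 10509 genes described here were measured, which means that the gene's brightest probe with 1 gene symbol was above the 0.01 detection limit on at least 1 of both CDC73 siRNA arrays. Detection was set against 452 probes for olfactory receptor genes, taken as silent in these cells. Values are given as normalized signal, a background-corrected and quantile-normalized brightness on a linear scale, and as log2 differences of it, confluent minus sparse. Across the 4 arrays the summed deposited signal lay between 22948100 and 28273400 and the number of detected probes between 13680 and 14899. With 1 array per group there is no replicate error and no test, and a difference was counted when it reached 2-fold. The SD between different probes of a gene, 0.33 on the log2 scale over 2051 genes with 2 detected probes, shows the precision of a probe, not the spread between cultures. RNA came from whole dishes, so fewer cells expressing a gene and less RNA per cell cannot be told apart.

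Silencing of CDC73 itself cannot be read here. Its single probe had a deposited signal of 90.05 in CDC73 confluent cells and 83.5 in CDC73 sparse cells, and of 98.3 in control confluent cells and 72.3 in control sparse cells. It was below the detection limit on all 4 arrays, so the labels alone define the siRNA groups. The other PAF1 complex genes were detected with CDC73 siRNA and none differed 2-fold by density. PAF1 had a log2 difference of -0.40, CTR9 of -0.24, LEO1 of -0.35, RTF1 of -0.17 and SKIC8, which also belongs to the Ski complex of RNA decay, of -0.79. The list of the PAF1 complex and other elongation factors had a median of -0.34 over 25 measured genes, with 20 lower, or -0.21 with the mean of probes, against -0.02 over all measured genes.

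In CDC73 confluent cells 453 genes (4.31% of those measured) were at least 2-fold higher and 408 genes (3.88%) at least 2-fold lower than in CDC73 sparse cells. The median difference of all measured genes was -0.02, and the 5th and 95th percentiles were -0.93 and 0.95, so the 2-fold limit lay just outside the central mass. Over the 9568 genes detected on both arrays, 320 (3.34%) were higher and 299 (3.12%) lower. Of all genes counted, 133 of the higher ones were detected only in confluent cells and 109 of the lower ones only in sparse cells. Differences of 4-fold or more were fewer, with 24 genes higher and 9 lower. Of 103 counted genes with a second detected probe, the second probe had the same sign in 96, passed 2-fold in the same direction in 43, and in none passed the limit in the opposite direction. Dim genes passed more often than bright ones: in the first of 4 level classes, the dimmest 2627 genes, 7.23% were higher and 6.62% lower, against 2.05% and 2.47% in the brightest 2628 genes. The CDC73 confluent array was dimmer, with a median log2 ratio of deposited signals of -0.24 against the sparse array, and quantile normalization removes such an offset. With median scaling, which keeps it, the median of all measured genes was -0.25 and the counts became 248 higher and 853 lower.

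**Figure D1:**
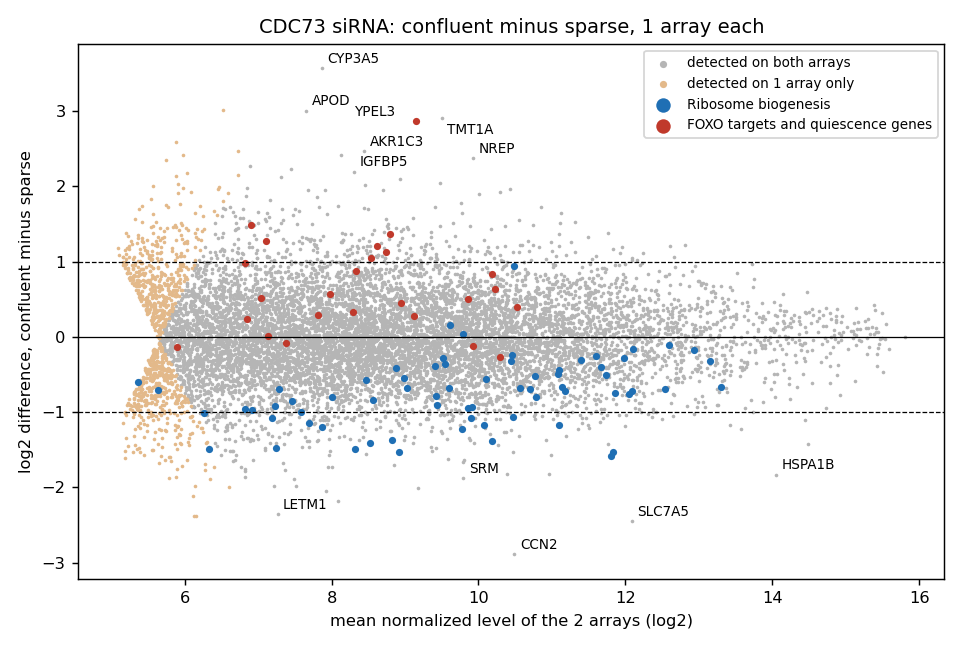
Log2 difference between confluent and sparse cells with CDC73 siRNA against the mean normalized level (log2) of both arrays, 1 point per measured gene. Blue points are ribosome biogenesis genes, of which 65 of 68 lie below 0, red points are FOXO and quiescence genes, of which 21 of 25 lie above 0, orange points are genes detected on 1 array only, and dashed lines mark 2-fold.

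CCN2, a matricellular growth factor and a direct target of YAP1 and TAZ, was the gene furthest below sparse cells. Its normalized signal was 528 in CDC73 confluent cells and 3916 in CDC73 sparse cells, a log2 difference of -2.89, and its second probe gave -3.02. With control siRNA the signal was 702 in confluent cells and 3941 in sparse cells. Both sparse arrays were thus near the same level and both confluent arrays far below them. The TEAD proteins, through which YAP1 and TAZ act, bind the letters GGAATG or their complement. The 250 bases before the CCN2 start, at chr6:131951373-131951622 on the minus strand of GRCh38.p14, are printed because this gene leads the comparison, and capitals mark the 3 matches, whose first bases lie at -169, -104 and -95 from the start.
CCN2: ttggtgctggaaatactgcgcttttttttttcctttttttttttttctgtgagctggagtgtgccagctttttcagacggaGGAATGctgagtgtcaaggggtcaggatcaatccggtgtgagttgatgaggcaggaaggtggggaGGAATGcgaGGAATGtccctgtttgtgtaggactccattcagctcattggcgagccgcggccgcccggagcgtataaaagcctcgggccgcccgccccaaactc
GGAATG was found on either strand in 11.9% of 27305 such promoters, in 9.35% of those of measured genes, and in 6 of the 17 YAP/TAZ targets with a promoter sequence (35.3%). It was absent from this window of GADD45B and FJX1, and present in 9.09% of promoters of genes at least 2-fold lower and 11.3% of those at least 2-fold higher.

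Next to CCN2 stood SLC7A5, the light chain of the transporter that imports large neutral amino acids such as leucine, with a signal of 1871 in CDC73 confluent cells and 10199 in CDC73 sparse cells (-2.45). MTHFD1L, which makes formate in mitochondria for purine synthesis, had 288 in confluent and 1158 in sparse cells (-2.01). SRM, spermidine synthase, had 463 in confluent and 1701 in sparse cells (-1.88). All 3 genes were over 3-fold lower in confluent cells. URB2, a nucleolar ribosome assembly protein, had 93.0 in confluent and 344 in sparse cells (-1.89), and IFRD2, a translation regulator, 74.6 and 295 (-1.98).

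The remaining leading lower genes belonged to other functions. LETM1, a cation exchanger of the inner mitochondrial membrane, had 68.0 in confluent and 348 in sparse cells (-2.35). GPRC5A, an orphan receptor induced by retinoic acid, had 128 and 579 (-2.17). ETV5, an ETS transcription factor downstream of receptor tyrosine kinases and ERK, had 119 and 494 (-2.05). These genes come from a transporter, a receptor and a transcription factor family and were all at least 4-fold lower. BMP6, a bone morphogenetic protein, had 59.1 in confluent and 215 in sparse cells (-1.87).

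The gene furthest above sparse cells was CYP3A5, a cytochrome P450 that oxidizes drugs and steroids, with a signal of 803 in CDC73 confluent cells and 67.7 in CDC73 sparse cells, a log2 difference of 3.57. With control siRNA it had 357 in confluent and 78.9 in sparse cells. It was therefore low on both sparse arrays and higher on both confluent ones. APOD, a lipid-binding apolipoprotein found raised in arrested cells, had 569.8 in CDC73 confluent cells and 71.1 in CDC73 sparse cells (3.003). TMT1A, a thiol methyltransferase, had 1984 and 264 (2.91). YPEL3, a growth-suppressing zinc-binding protein and p53 target, had 1534 and 211 (2.86). These 4 genes were each over 7-fold higher in confluent cells.

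Further genes at least 4-fold higher included AKR1C3, an aldo-keto reductase of steroids and prostaglandins, with 819 in CDC73 confluent and 148 in CDC73 sparse cells (2.47). AKR1C genes are near-identical copies, so the probe may also read its neighbours. GBP2, an interferon-inducible GTPase, had 647 in confluent and 121 in sparse cells (2.42). NREP, first described in regenerating neurons, had 2219.8 and 428 (2.38). ABCA1, the pump that loads cholesterol onto apolipoprotein A-I, had 262 and 54.2 (2.27). IGFBP5, which binds insulin-like growth factors, had 675 in confluent and 148 in sparse cells (2.19), with 2.88 by its second probe. CYGB, a globin of the cytoplasm, differed by 2.13, NOXA1, an activator of NADPH oxidase, by 2.10, and SUGCT, a mitochondrial CoA transferase, by 2.05.

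**Figure D2:**
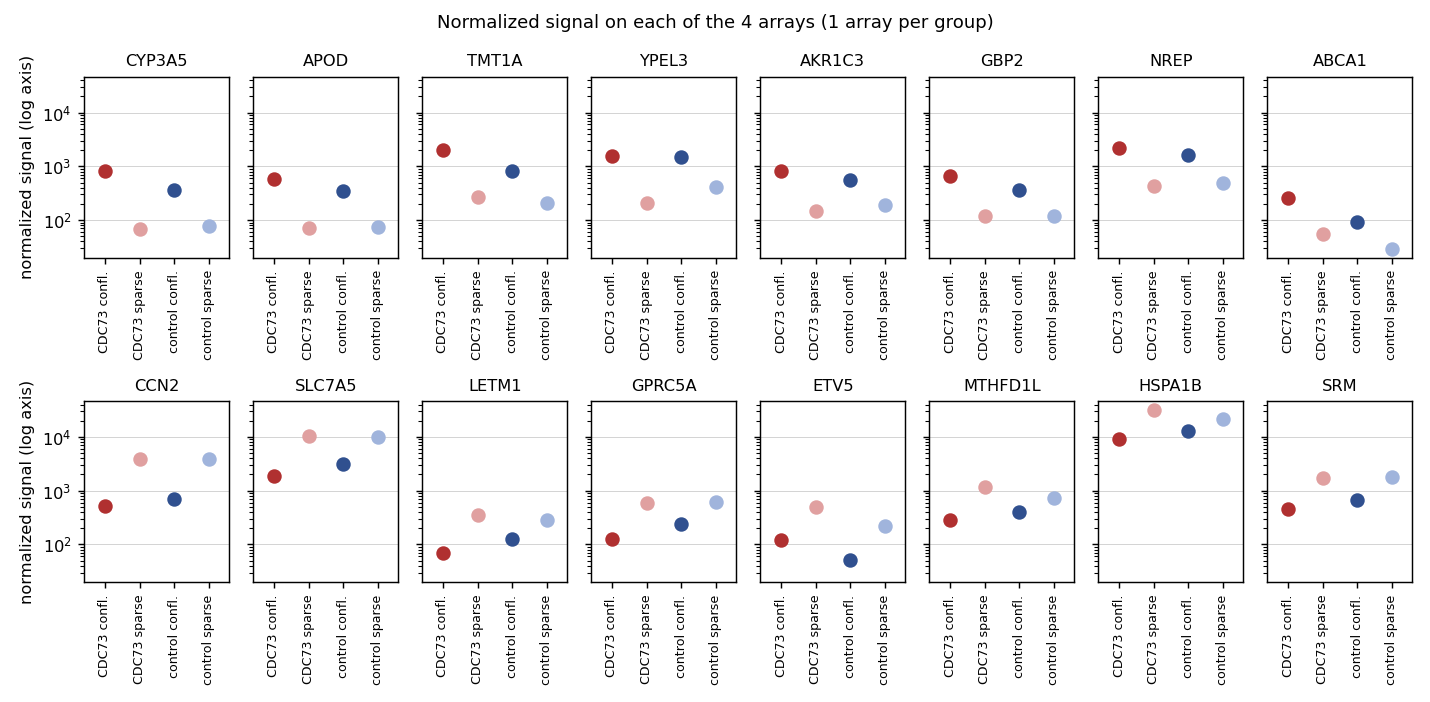
Normalized signal (log axis) of 8 genes higher and 8 genes lower in confluent than in sparse cells with CDC73 siRNA, 1 point per array, with CDC73 confluent, CDC73 sparse, control confluent and control sparse from left to right. In each panel the points of confluent and sparse cells order the same way with both siRNAs, for example CCN2 at 528 and 3916 with CDC73 siRNA.

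Where a gene was detected on 1 array only, the fold is a lower bound against the detection limit of the array that did not detect it. INPP5D, a lipid phosphatase opposing phosphoinositide 3-kinase, was at least 5.16-fold higher in CDC73 confluent than in CDC73 sparse cells. CLCA2, a p53-inducible membrane protein, was at least 4.93-fold higher, and the interferon-induced gene IFI44L at least 4.42-fold higher. RIN2, an exchange factor for the endosomal GTPase RAB5, was at least 3.70-fold higher and the kinase gene MAP3K12 at least 3.51-fold higher. In the other direction TRAF3, an adaptor of tumour necrosis factor receptors, was at least 3.90-fold lower. ETV4, the ETS factor most like ETV5, was at least 3.28-fold lower. B4GALNT1, a ganglioside synthase, was at least 3.23-fold lower, the cyclin gene CCNJ at least 3.14-fold lower, and SDC2, a heparan sulfate proteoglycan, at least 3.10-fold lower.

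Most YAP/TAZ targets were lower in confluent cells, though not all. Of 23 measured targets 15 were lower, 5 (21.7%) at least 2-fold, against 3.88% of all measured genes, and none was 2-fold higher. The list median was -0.43 with CDC73 siRNA, or -0.24 in the authors' log2 table, and -0.88 with control siRNA. GADD45B, a stress-induced growth arrest gene, had 136 in CDC73 confluent and 449.9 in CDC73 sparse cells (-1.72). FJX1, a secreted kinase-like regulator of planar polarity, had 316 and 817 (-1.37), and TNFRSF12A, the TWEAK receptor, 228 and 538 (-1.24). CCN1, the matricellular relative of CCN2, had 501 in confluent and 975 in sparse cells with CDC73 siRNA (-0.96), against 312 and 1528 with control siRNA (-2.29). CCN1 with CDC73 siRNA thus stayed just inside the 2-fold limit.

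The Hippo pathway genes themselves did not share 1 direction. Their median was 0.16 over 24 genes, and -0.13 with median scaling, so its sign depends on the scaling. YAP1, the coactivator, had 2214 in CDC73 confluent and 1111 in CDC73 sparse cells (0.99), just under the limit. TEAD4, a DNA-binding partner of YAP1, had 856 and 1829 (-1.09), while TEAD2 had 4726 and 2989 (0.66). The polarity protein gene SCRIB had -0.68 and AMOT, which holds YAP1 at junctions, 0.66. Junction, adhesion and actin genes also showed small medians. Cadherins, catenins and junctions had -0.15, integrins and focal adhesion -0.21, and SRF targets and actin -0.17. Among them PARVA, which links integrins to actin, had 82.7 in confluent and 167 in sparse cells (-1.01). CNN2, an actin-binding calponin, had 449 and 916 (-1.03). ACTA2, smooth muscle actin, was higher, with 9347 in confluent and 4474 in sparse cells (1.06).

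Extracellular matrix genes had a median of 0.12 over 29 measured genes, or -0.10 with median scaling. At least 2-fold higher were 3 (10.3%), against 4.31% of all measured genes. COL5A2, a fibrillar collagen chain, had 1236 in CDC73 confluent and 374 in CDC73 sparse cells (1.73). COL3A1, another fibrillar collagen, had 299.6 and 126 (1.25), and LAMB2, a laminin chain of basement membranes, 423 and 211 (1.01). With control siRNA the list median was 0.66 and 8 members were at least 2-fold higher. The 6 fibroblast markers had a summed deposited signal of 952 in CDC73 confluent and 748 in CDC73 sparse cells. At the median of the olfactory receptor probes, 6 probes would sum to 434 and 439. COL1A2, DCN and THY1 among the markers were below the detection limit on both arrays. The part of the fibroblast markers in the matrix values was not tested.

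Ribosome biogenesis was the list with the most members lower. Of 68 measured genes 65 were lower in CDC73 confluent cells and 18 (26.5%) at least 2-fold, against 3.88% of all measured genes. The median was -0.71, and no member was 2-fold higher. BOP1, of the PeBoW complex for the large subunit, had 2056 in confluent and 6173 in sparse cells (-1.59). NOLC1, a nucleolar phosphoprotein, had 284 and 823 (-1.53), and NOP2, an rRNA methyltransferase, 2152 and 6223 (-1.53, and -1.75 by its second probe). The difference was thus seen in bright and dim genes alike. NOP16 differed by -1.49 and RRP1B, both nucleolar proteins, by -1.48. With control siRNA the list had a median of -0.61 and 14 members at least 2-fold lower.

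The proteins of the ribosome were not lower together with the assembly factors. Of 49 measured ribosomal protein genes 36 were higher and none passed 2-fold in either direction, with a median of 0.10, which was 0.20 with median scaling. RPL28 had 0.95 and RPL29 -0.88, both proteins of the large subunit. RNA polymerase I and III genes had a median of -0.35 over 31 genes. At least 2-fold lower were 4 (12.9%) and higher 2 (6.45%), against 3.88% and 4.31% of all measured genes. POLR1B, the second largest subunit of RNA polymerase I, had 61.1 in CDC73 confluent and 156 in CDC73 sparse cells (-1.35). POLR3B of RNA polymerase III had 351 and 746 (-1.09), and POLR1F had 150.0 and 311 (-1.05). POLR3GL, a form of an RNA polymerase III subunit found in differentiated cells, ran the other way with 2607 and 1116 (1.22), and TAF1D, of the polymerase I selectivity factor, with 322 and 145 (1.15).

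Among genes of translation the lists differed. Of 18 aminoacyl-tRNA synthetase genes, which charge tRNAs, 16 were lower and 2 (11.1%) at least 2-fold, with a median of -0.49. VARS1, the valine enzyme, had 393 in CDC73 confluent and 1085 in CDC73 sparse cells (-1.46), and YARS1, the tyrosine enzyme, 2179.8 and 4755 (-1.13). Translation factors had a median of -0.11, with 24 lower and 20 higher of 45, and 3 (6.67%) were at least 2-fold lower, against 3.88% of all measured genes. The 3 were EIF3C (-1.28) and EIF3B (-1.22) of the initiation factor that joins the small subunit, and the scaffold EIF4G1 (-1.07).

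Nucleotide synthesis had 19 of 20 genes lower, with a median of -0.58. At least 2-fold lower were 5 (25%), against 3.88% of all measured genes. PPAT, the first committed enzyme of purine synthesis, had 589 in CDC73 confluent and 1516 in CDC73 sparse cells (-1.36). IMPDH1, of guanine nucleotide synthesis, had 588 and 1492 (-1.34), and CAD, which starts pyrimidine synthesis, 158 and 359 (-1.19). CTPS1, which makes CTP, had -1.09 and ATIC, which closes the purine ring, -1.03, so purine and pyrimidine branches were both represented. Serine, glycine and one-carbon genes had 11 of 14 lower with a median of -0.52, and besides MTHFD1L its cytosolic relative MTHFD1 was 2-fold lower, with 148 and 313 (-1.08). Amino acid transporters had 15 of 18 lower with a median of -0.53. SLC3A2, the heavy chain that pairs with SLC7A5, had 1205 in confluent and 3103 in sparse cells (-1.36), so both chains of that transporter were lower.

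MYC, a transcription factor that drives ribosome and nucleotide genes, had 206 in CDC73 confluent and 532 in CDC73 sparse cells (-1.37, and -1.04 by its second probe). With control siRNA it had 424 in confluent and 467 in sparse cells (-0.14). Its partners and the AP-1 factors did not move with it, since the list median was 0.02 over 27 genes and -0.18 with median scaling. EGR1, an immediate early gene, had 1599 in CDC73 confluent and 467 in CDC73 sparse cells (1.77). JUN, an AP-1 subunit, had 2222 and 1016 (1.13), and MXD3, a MAX partner opposed to MYC, 464 and 231 (1.01). The MYC-MAX dimer binds CACGTG, a motif added to the search after the lists had been examined. It was found in 9 of 58 ribosome biogenesis promoters (15.5%), in 11.9% of promoters of genes at least 2-fold lower, in 6.38% of those at least 2-fold higher and in 9.12% of those of measured genes. With control siRNA, where MYC differed by -0.14, the ribosome biogenesis median was -0.61. A part of MYC in these differences was not tested.

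Of 14 ETS factors and feedback regulators of the ERK pathway 12 were lower, with a median of -0.52, or -0.29 without the detection filter. ETV4 and ETV5 have been given above. PHLDA2, an imprinted growth-restraining gene, had 89.5 in CDC73 confluent and 207 in CDC73 sparse cells (-1.21). SPRY1, a Sprouty inhibitor of receptor signalling, had 319 and 689 (-1.11). IL17RD, another inhibitor of this pathway, ran opposite with 7131 and 3305 (1.11).

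Cytosolic chaperones had a median of -0.75 over 29 genes, with 22 lower and 7 (24.1%) at least 2-fold, against 3.88% of all measured genes. HSPA1B, an inducible HSP70, had 9011 in CDC73 confluent and 32038 in CDC73 sparse cells (-1.83). HSPA1A had 92.2 and 365 (-1.99) with CDC73 siRNA, and 113 and 113 with control siRNA. These genes are near-identical copies, but whether their probes read both was not tested. With control siRNA HSPA1B had 12643 in confluent and 21560 in sparse cells, while HSPA1A was level. The HSPA1A probe was dim, with deposited signals of 138 in CDC73 confluent, 204 in control confluent and 169 in control sparse cells. HSPH1, an HSP110 chaperone, had 1064 and 3765 (-1.82), FKBP4, an HSP90 cochaperone, 498 and 1571 (-1.66), and CHORDC1, also an HSP90 partner, 288 and 687 (-1.25). The lower genes thus include members of the HSP70, HSP110 and HSP90 systems.

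Heat shock factor HSF1 binds inverted repeats of the GAA unit, and the letters searched were GAANNTTC. The promoters of both HSP70 genes are printed to show their likeness and the match, in capitals, which starts at -106 in HSPA1A (chr6:31815293-31815542, plus strand) and -105 in HSPA1B (chr6:31827488-31827737, plus strand).
HSPA1A: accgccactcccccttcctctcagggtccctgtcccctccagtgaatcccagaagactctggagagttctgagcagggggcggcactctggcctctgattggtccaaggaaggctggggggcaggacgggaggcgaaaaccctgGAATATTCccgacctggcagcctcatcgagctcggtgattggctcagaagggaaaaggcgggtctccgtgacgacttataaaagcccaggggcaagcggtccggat
HSPA1B: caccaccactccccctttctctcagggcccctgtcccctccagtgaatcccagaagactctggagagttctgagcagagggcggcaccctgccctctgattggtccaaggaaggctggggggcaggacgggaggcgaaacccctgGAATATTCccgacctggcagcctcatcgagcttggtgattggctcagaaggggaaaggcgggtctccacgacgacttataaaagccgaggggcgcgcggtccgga
At a shift of 1 base, 235 of 249 positions were identical (94.4%). GAANNTTC was found in 9 of 26 chaperone promoters (34.6%), in 5.96% of promoters of genes at least 2-fold lower, 4.06% of those at least 2-fold higher, 4.17% of those of measured genes and 5.85% of all, and it was absent from this window of HSPH1.

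Other protein-folding and turnover lists differed in size. The CCT chaperonin, prefoldin and mitochondrial chaperones had 17 of 21 genes lower with a median of -0.53, and CCT5, a chaperonin subunit, had 191 in CDC73 confluent and 487 in CDC73 sparse cells (-1.35). ER chaperones and unfolded protein response genes had no member past 2-fold and a median of 0.04, or -0.21 with median scaling. ATF4 targets, read after amino acid or ER stress, had a median of -0.10. Of 15 measured, 2 (13.3%) were at least 2-fold higher, against 4.31% of all measured genes. DDIT3, the stress factor CHOP, had 734 in confluent and 261 in sparse cells (1.49). The other, NUPR1, a stress-induced chromatin protein named here after its value was seen, was detected in confluent cells only. Proteasome genes had a median of -0.24, with PSME3, a nuclear proteasome activator, at 832 and 2400.2 (-1.53) and the base subunit gene PSMD2 at 1219.9 and 2484 (-1.03).

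NRF2 targets, which answer oxidative stress, were mixed, with a median of -0.27 over 26 genes. At least 2-fold lower were 3 (11.5%) and higher 2 (7.69%), against 3.88% and 4.31% of all measured genes. SRXN1, sulfiredoxin, had 354 in CDC73 confluent and 784 in CDC73 sparse cells (-1.15). NQO1, a quinone reductase, had 276 and 598 (-1.12), and TXNRD1, thioredoxin reductase, 975 and 1963 (-1.01). The aldo-keto reductases AKR1C3 and AKR1C2 were the members at least 2-fold higher, AKR1C2 with 496 and 192 (1.37).

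DNA replication and G1/S genes had mostly small negative differences. Of 53 measured genes 40 were lower in CDC73 confluent cells, with a median of -0.41, or -0.25 with the mean of probes, and 2 (3.77%) reached 2-fold, a share near the 3.88% of all genes. EXO1, an exonuclease of repair, had 475 in confluent and 1212 in sparse cells (-1.35), and UHRF1, which guides maintenance DNA methylation, 3758 and 7539 (-1.004). RRM2, the inducible ribonucleotide reductase subunit, had 252 and 448 (-0.83). MCM4, a helicase subunit, had -0.83 by its brighter probe and 0.43 by its second, so its probes disagree. With control siRNA the list median was 0.15.

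Mitosis and G2/M genes had 46 of 61 members lower with a median of -0.41. At least 2-fold lower was 1 of them (1.64%), against 3.88% of all measured genes. BIRC5, survivin of the chromosomal passenger complex, had 1201 in CDC73 confluent and 2547 in CDC73 sparse cells (-1.08, and -1.32 by its second probe). KIF20A, a kinesin of cytokinesis, had 1110.3 and 2218 (-0.999), CDCA8, another passenger subunit, -0.90, and the mitotic kinase PLK1 -0.79. Most differences in both cycle lists were thus under 2-fold. Among CDK inhibitors and G1 cyclins, with a median of -0.45 over 20 genes, CCND1, cyclin D1, had 753 in confluent and 2028 in sparse cells (-1.43), while control cells had 4638 in confluent and 6241 in sparse cells. CDKN1C, the inhibitor p57, ran opposite with 289 and 89.1 (1.70). CDKN1A, the inhibitor p21, named here after its value was seen, was at 0.84 with CDC73 siRNA and 2.06 with control siRNA.

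Most p53 targets and quiescence genes were higher. Of 24 p53 targets 19 were higher and 5 (20.8%) at least 2-fold, against 4.31% of all measured genes, with a median of 0.53 and 0.24 with median scaling. GDF15, a secreted stress hormone, had 822 in CDC73 confluent and 212 in CDC73 sparse cells (1.96). TP53INP1, a cofactor that favours arrest and autophagy, had 737 and 249 (1.57). TP53I3, an oxidoreductase, had 1566 and 565 (1.47), and DDB2, of nucleotide excision repair, 454 and 175 (1.38). The other of the 5 was CDKN1C (1.70), given above, which also stands in the list of CDK inhibitors. FOXO targets and quiescence genes had 21 of 25 members higher and 7 (28.0%) at least 2-fold, with a median of 0.52 and 0.30 with median scaling. Besides YPEL3 these included ERBB3, a receptor kept low by active AKT, with 202 and 71.7 (1.49). FOXO4 itself had 717 and 278 (1.37), PDK4, which blocks pyruvate entry into mitochondria, 215 and 88.7 (1.28), and TXNIP, a brake on glucose uptake, 595 and 258 (1.21). Control siRNA cells gave a median of 0.66 over the p53 list and 0.54 over the FOXO list.

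Replication-dependent histone genes were measured for 21 members. Of these 16 had a positive difference, which reached 2-fold in 3 (14.3%), against 4.31% of all measured genes. The list median was 0.48, or 0.084 without the detection filter. H1-2, a linker histone, had 3355 in CDC73 confluent and 1012 in CDC73 sparse cells (1.73). H2BC5 had 1273 and 564 (1.17), and H2AC18, of the H2A family, 3753 and 1714 (1.13). With control siRNA H2BC5 had 176 in confluent and 171 in sparse cells, so it was brighter on both CDC73 siRNA arrays. Histone genes are near-identical copies and their mRNAs mostly lack poly(A) tails, so such probes may read several genes and the amplified RNA may hold little of them.

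Of 34 glycolysis and hypoxia genes 27 were lower, with a median of -0.48. At least 2-fold lower were 7 (20.6%), against 3.88% of all measured genes. SLC2A1, the glucose transporter GLUT1, had 257 in CDC73 confluent and 833 in CDC73 sparse cells (-1.70), and SLC2A3, GLUT3, 7308 and 16389.8 (-1.17). HK2, a hexokinase, had 59.6 and 171 (-1.52). The later enzyme genes ENO1, with 15233 and 32685 (-1.10), and PGK1, with 1301 and 2685 (-1.04), were lower as well. Uptake, the first and the late steps of glycolysis were therefore all represented. Oxidative phosphorylation had no member past 2-fold and a median of 0.04, or -0.12 with median scaling.

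Lipid genes were mixed. Cholesterol synthesis and uptake had a median of -0.31, with DHCR7, the last enzyme of cholesterol synthesis, at 337 in CDC73 confluent and 898 in CDC73 sparse cells (-1.41) and ABCA1 on the higher side. Fatty acid synthesis had a median of -0.08, with FASN, fatty acid synthase, at 3864 and 7745 (-1.003). Lysosome and vacuolar ATPase genes had a median of 0.06, or -0.24 with median scaling. Of 49 measured, 1 (2.04%) was at least 2-fold higher, against 4.31% of all measured genes. This was ATP6V1G2, a proton pump subunit, with 627 in confluent and 191 in sparse cells (1.72).

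Interferon response and antigen presentation genes had 19 of 30 members higher, with a median of 0.40 and 0.14 with median scaling. At least 2-fold higher were 4 (13.3%), against 4.31% of all measured genes. BST2, tetherin, had 867 in CDC73 confluent and 316 in CDC73 sparse cells (1.45), and UBE2L6, the conjugating enzyme for ISG15, 600.5 and 234 (1.36). TAP2, of the peptide transporter, ran opposite with 75.7 and 195 (-1.36). The control siRNA median was 0.37.

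Signalling pathways had list medians between -0.08 and -0.01, with single members past 2-fold. In the Notch list NOTCH3, a receptor, had 961 in CDC73 confluent and 319.9 in CDC73 sparse cells (1.59). In the Wnt list FZD4, a Frizzled receptor, had 471 and 234 (1.01). In the TGF-beta and BMP list BMP2, a ligand, had 142 and 469 (-1.73) and LTBP4, which stores latent TGF-beta, 248 and 123 (1.01). The Hedgehog list had no member past 2-fold among 9 measured. In the list of insulin-like growth factors and receptor tyrosine kinases 4 of 30 (13.3%) were at least 2-fold lower and 2 (6.67%) higher. Over all measured genes the shares were 3.88% and 4.31%. The higher members were IGFBP5 and ERBB3. None of the 22 members detected on both arrays was 2-fold lower, and the 4 lower ones were detected in sparse cells only. In the BCL2 family, with a median of 0.10 and -0.14 with median scaling, the death-promoting BMF had 246 and 81.5 (1.60) and BIK 125 and 60.3 (1.05). Primary cilium genes had a median of 0.08, or -0.17 with median scaling, and TMEM231, of the transition zone, had 61.3 and 125 (-1.02).

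The cell type markers were read for the identity of the cells. Of 6 HEK293 markers on the array LHX1, NEFL and TUBB3 were detected on both arrays, while PAX2, NEFM and INA were not. Markers of mature kidney (4), hepatocytes (3) and keratinocytes (2) were all below the detection limit on both. Of the fibroblast markers COL1A1, COL3A1 and LUM were detected on both arrays. Of the 4 endothelial markers VWF was detected on both arrays and PECAM1 in CDC73 sparse cells only. Endothelial markers summed to a deposited signal of 419 in CDC73 confluent and 382 in CDC73 sparse cells. Blood markers, of which only CD14 was detected, summed to 362 and 402. At the median of the olfactory receptor probes, 4 probes would sum to 289 and 293. The combined list of fibroblast, endothelial and blood markers had a median of 0.65 over 8 measured genes. Neuronal markers had a median of 0.45 over 13 genes, 9 higher and 4 lower, and of 0.13 with the mean of probes and 0.20 to 0.21 with median scaling or a laxer detection filter. They ranged from TUBB3, a neuronal tubulin, at -0.45, to DLG4, a postsynaptic scaffold, with 474 in confluent and 122 in sparse cells (1.96). Of the kidney and adrenal markers 4 were measured and none passed 2-fold.

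**Figure D3:**
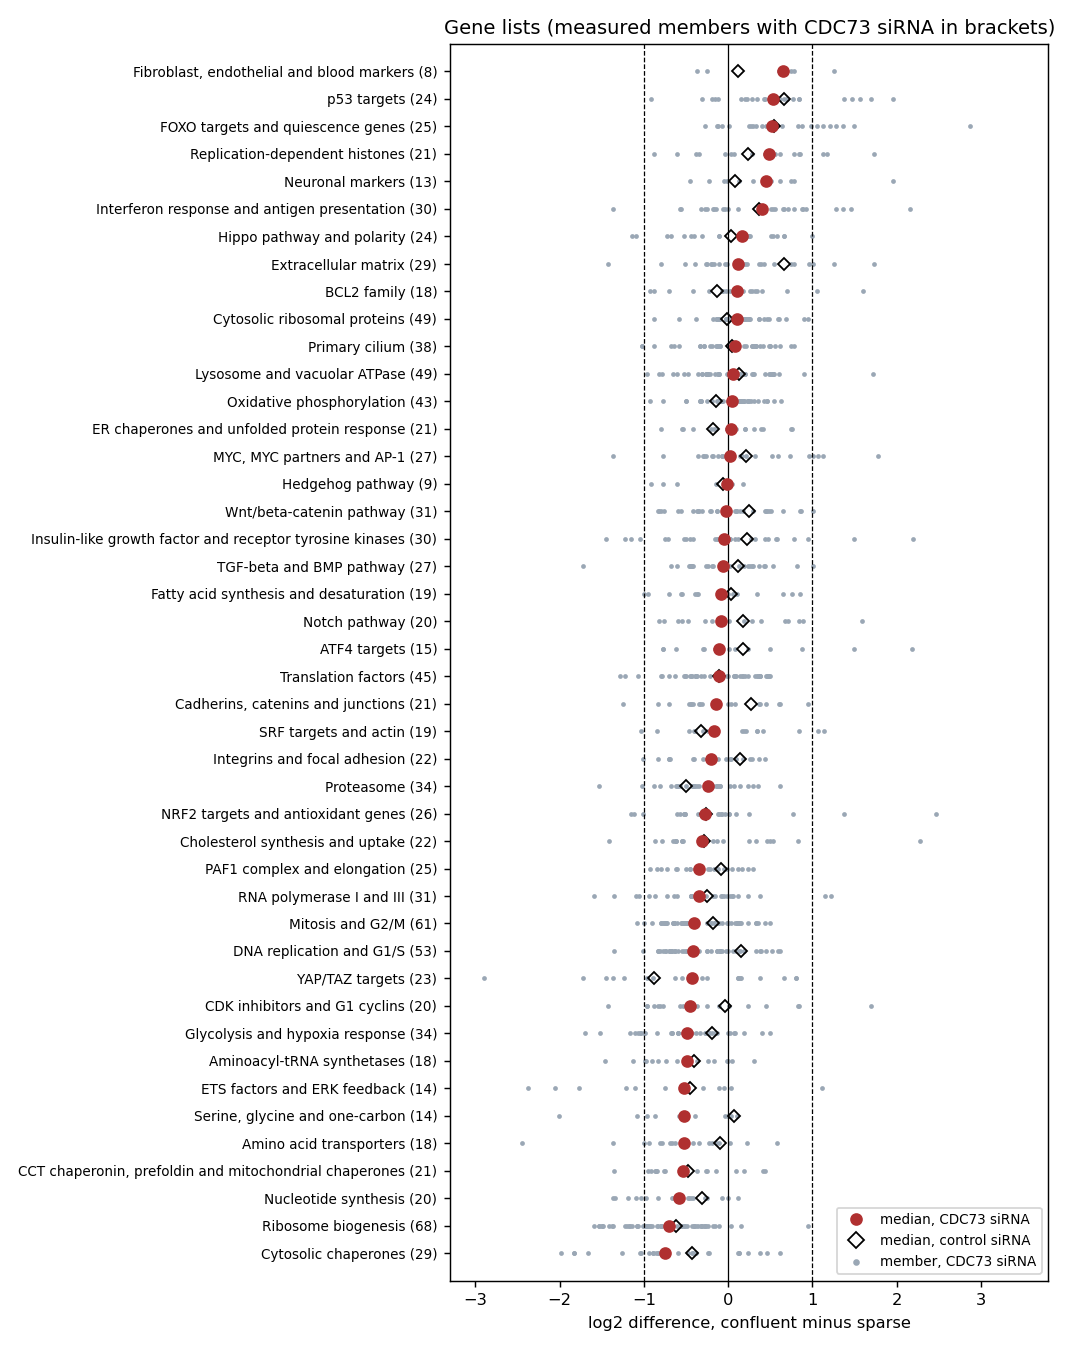
Log2 difference, confluent minus sparse, of the measured members of the gene lists with CDC73 siRNA (grey points). List medians are shown for CDC73 siRNA (red) and control siRNA (open diamonds), sorted by the CDC73 median. Kidney and adrenal markers, with 4 measured members, are not drawn. Cytosolic chaperones (-0.75) and ribosome biogenesis (-0.71) lie lowest under the reported processing, and the p53 and FOXO lists (0.53 and 0.52) lie near the top.

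**Figure D4:**
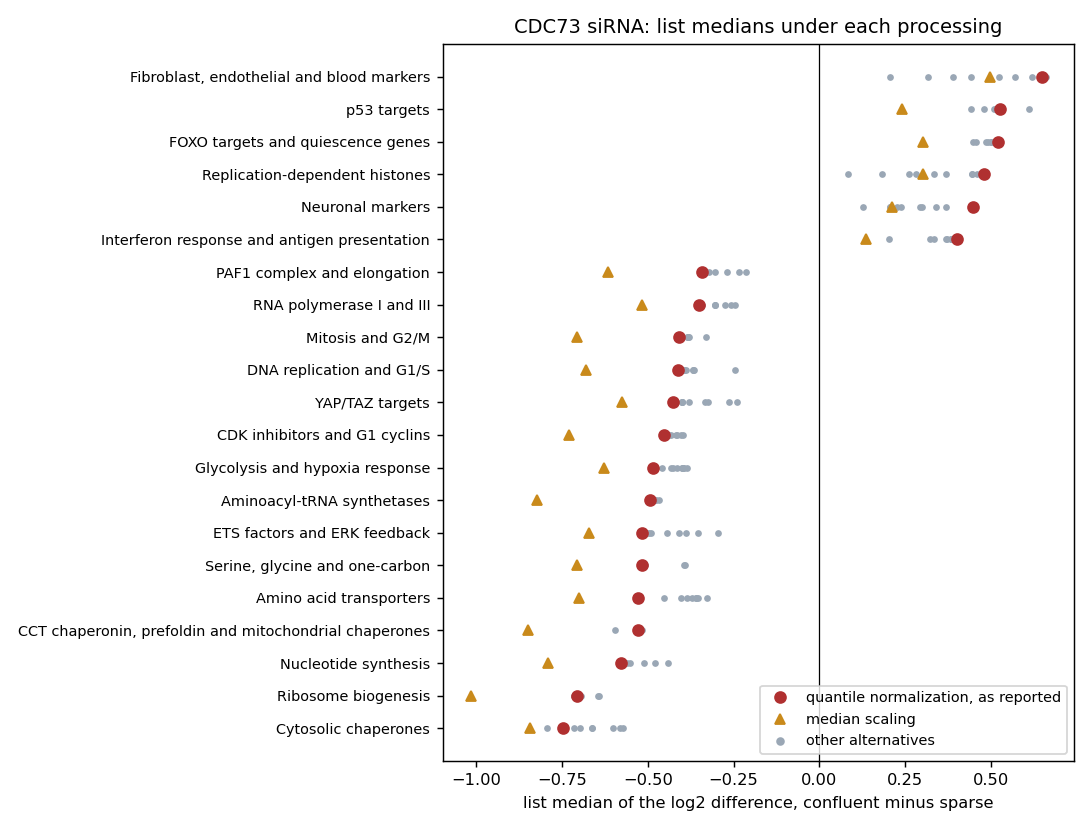
List medians of the log2 difference with CDC73 siRNA for the 21 lists with a median beyond 0.33 (the probe SD, used here only to choose what is drawn), under the reported processing (red), median scaling (triangles) and the other alternatives (grey). No median crosses 0, and median scaling moves the medians to lower values, as for ribosome biogenesis at -1.01.

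With control siRNA, confluent against sparse cells gave 395 genes at least 2-fold higher (3.86%) and 168 lower (1.64%). The comparisons share no array but were normalized together. Among 9990 genes measured with both siRNAs, 395 were at least 2-fold higher with CDC73 siRNA and 371 with control siRNA. Higher with both were 142 (1.42%), which is 35.9% of those 395 and 38.3% of those 371. At least 2-fold lower were 375 with CDC73 siRNA and 158 with control siRNA. Lower with both were 57 (0.571%), which is 15.2% of those 375 and 36.1% of those 158. Of the genes higher with CDC73 siRNA 89.6% were above 0 with control siRNA, against 51.4% of all genes, and of the lower ones 84.8% were below 0, against 48.5%. Across 9047 genes detected on all 4 arrays the differences had a Pearson r of 0.485 and a Spearman rho of 0.412, and genes are not independent replicates.

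Among genes at least 2-fold higher with both siRNAs, CEL, a bile-salt-activated lipase, had 1992 in CDC73 confluent and 534 in CDC73 sparse cells (1.90) and a difference of 2.79 with control siRNA. ZNF467, a zinc finger protein, had 423 and 117 (1.85), with 2.53 in control cells. PNCK, a calmodulin-dependent kinase, had 416 and 125 (1.73), with 1.83 in control cells. ALG1L1P, a pseudogene related to a glycosylation enzyme, differed by 1.93 and 1.81, and its probe may read the parent gene. IGFBP5, CYP3A5, APOD, TMT1A, YPEL3 and NREP belong here as well. Among genes lower with both were RRS1, of ribosome assembly, at 282 and 729 (-1.37, and -1.45 in control cells), and the nucleolar protein gene CCDC86 at 709 and 2518 (-1.83, and -1.37 in control cells). CCN2, SLC7A5, ETV5, NOP16, HK2, HSPH1, SRM and GPRC5A completed the group named by the same rule.

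Some genes had density differences that were further apart between the siRNAs, which was not tested. KLF5, a growth-promoting zinc finger factor, had 192 in CDC73 confluent and 64.4 in CDC73 sparse cells (1.58), against 109 and 162 with control siRNA (-0.57). EGR1 had 194 in control confluent and 245 in control sparse cells (-0.33), so it was brighter on both CDC73 siRNA arrays than on the control arrays, most of all in CDC73 confluent cells. ANKRD1, a YAP/TAZ target and cardiac ankyrin repeat protein, had 348 in CDC73 confluent and 642 in CDC73 sparse cells (-0.89), against 175 and 1350.4 with control siRNA (-2.95). EAPP, a binding partner of E2F, had differences of 1.51 and -0.51, and HMGN3, a nucleosome-binding protein, of 1.05 and -0.63. TXNL1 (0.78 and -0.91), SNRPE (0.88 and -0.78) and the pseudogene ANP32AP1 (-0.03 and -1.98) were under 2-fold with CDC73 siRNA.

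In the opposite direction HSPA1A led, with the dim signals given above. CCNY, a membrane-bound cyclin, followed with 511 in CDC73 confluent and 1038 in CDC73 sparse cells (-1.02). With control siRNA CCNY had 2697 and 1428 (0.92). Its second probe gave -0.53 with CDC73 siRNA. SCARF2, a scavenger receptor family member, had 59.9 and 199 (-1.73) against 214 and 218 (-0.03), so the CDC73 confluent array alone stood low. SLC45A4, a transporter gene, differed by -1.09 with CDC73 siRNA and 0.61 with control siRNA, and ABHD15, of the hydrolase fold family, by -1.11 and 0.59. ZFC3H1, of nuclear RNA surveillance, had -0.39 and 1.46, KDM3A, a histone demethylase, -0.60 and 1.15, and NBPF9, one of a set of near-identical genes, -0.50 and 1.22. The second probe of NBPF9 gave 0.18 with CDC73 siRNA, so its probes disagree in sign.

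**Figure D5:**
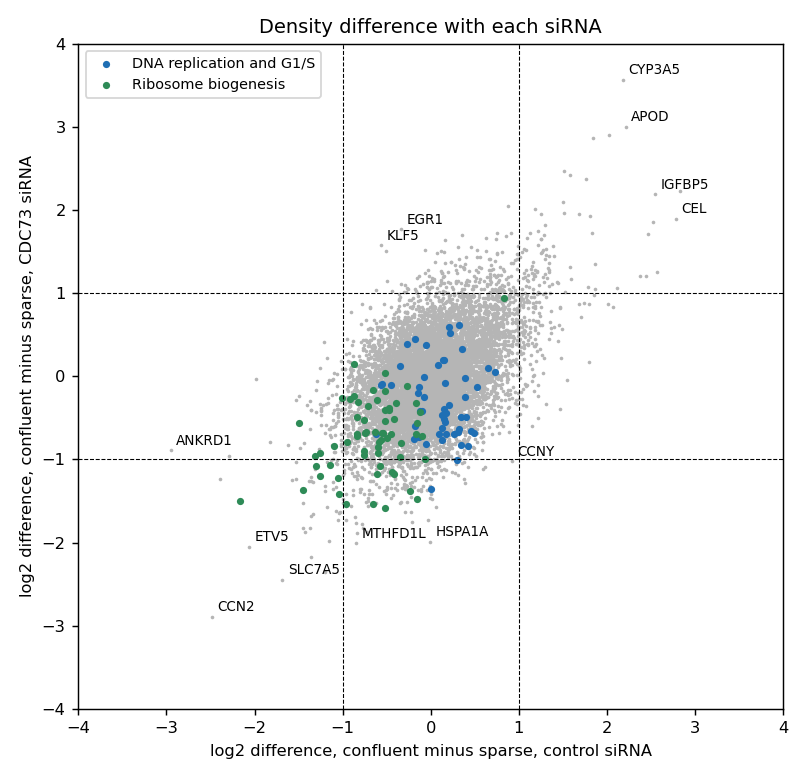
Log2 difference, confluent minus sparse, with CDC73 siRNA (vertical) against control siRNA (horizontal) for genes detected on all 4 arrays, with ribosome biogenesis genes in green, replication genes in blue and dashed lines at 2-fold. Ribosome biogenesis genes lie mostly below 0 on both axes (medians -0.71 and -0.61), and replication genes lie mostly below 0 on the vertical axis (-0.41) and around 0.15 on the horizontal one.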

How the data were processed

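RNA of 4 HEK293 dishes was amplified and hybridised to Illumina bead arrays with 49576 listed probes, 48803 of them with values. The deposited scanner table holds 1 summary intensity per probe and array, not normalized, per the file headers. The deposited log2 table of the same arrays is on a log2 scale and not centred, with a median of 6.42 on every array; its normalization is not given in the sources used here, and it served as an alternative.

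Intensities were background-corrected by normexp (nec, offset 16) against 452 olfactory receptor probes and quantile-normalized with limma 3.58.1 in R 4.3.3; Python 3.11.15 did the rest. The steps were tested on simulated data. Of the probes, 28098 have 1 gene symbol in the platform annotation, 13 several and 20692 none; names were updated through RefSeq, in which 39 probes' gene numbers were not found, giving 18852 symbols. A gene is its brightest probe over the 4 arrays. Genes are named by rule: the 12 largest differences per direction detected on both arrays, 5 bounds per direction, 10 genes shared by both siRNAs, 8 differing between siRNAs, and 5 members per list. List medians are descriptions; the probe SD, a spread of single genes' probes, is no limit for them and served only as a tolerance for the alternatives. Promoter sequences are RefSeq's, of GRCh38.p14; motifs were sought on both strands.

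With 1 array per group, no error, test or p-value can be had. The comparison, the 45 lists and the naming rules were chosen with earlier results of these data known. The alternatives were 10 settings of background, scaling, detection and probe choice.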

Additional observations from a re-analysis of the deposited data

Results flagged for a closer look

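The density difference had opposite signs with the 2 siRNAs in 3 genes that passed 2-fold with both, and none of these contrasts was tested. C1D, a nuclear exosome cofactor, differed by 1.76 with CDC73 siRNA and -1.09 with control siRNA. FOXP1, a forkhead repressor, differed by 1.21 and -1.003, and CGA, the shared alpha subunit of glycoprotein hormones, by -1.04 and 1.71. Opposite signs were also seen in list medians, likewise untested, and the 4 lists given next are not all of them. Wnt/beta-catenin genes, for example, had -0.03 with CDC73 siRNA and 0.25 with control siRNA. Kidney and adrenal markers had -0.27 and 0.22. DNA replication and G1/S had -0.41 with CDC73 siRNA and 0.15 with control siRNA. Serine, glycine and one-carbon genes had -0.52 and 0.065. Cadherins, catenins and junctions had -0.15 and 0.27, and integrins and focal adhesion -0.21 and 0.14. With median scaling the median of all measured genes was -0.25 with CDC73 siRNA and 0.22 with control siRNA. Under the reported processing these medians were -0.02 and 0.02.

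Probes without a single gene symbol stood outside the gene comparison. Of 20705 such probes 2450 were detected. Relative to CDC73 sparse cells, 2-fold was reached by 151 with a brighter CDC73 confluent signal and by 66 with a dimmer one. For comparison, 453 of the 10509 measured genes (4.31%) passed this limit upward and 408 (3.88%) downward. The balance of directions among these probes was not tested.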

How the results depend on the processing

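The numbers of genes past 2-fold depended on the processing more than the directions did. Without background correction 192 genes were higher and 146 lower with CDC73 siRNA, and 53 and 19 with both siRNAs. An offset of 50 gave 243 and 203, and 74 and 26 with both. The authors' log2 table gave 195 and 171, and 57 and 22 with both. The cause was not tested. Median scaling gave 248 higher and 853 lower. Background by maximum likelihood gave 267 lower, and 36 lower with both. Detection on both arrays left 90 higher with both. The other 23 of 40 counts stayed within 1.5 times. Of 450 list medians 446 moved by less than the probe SD of 0.33. Of the 21 lists with a median beyond that value none changed sign, and 11 came within it under at least 1 alternative, among them YAP/TAZ targets (-0.24), RNA polymerase I and III (-0.25), DNA replication (-0.25), PAF1 complex and elongation (-0.21), neuronal markers (0.13), interferon response (0.14) and p53 targets (0.24) at the value nearest to 0. Ribosome biogenesis lay below cytosolic chaperones in 5 of the settings. The medians that moved further were aminoacyl-tRNA synthetases at -0.82 with median scaling, replication-dependent histones at 0.084 without a detection filter, and fibroblast, endothelial and blood markers at 0.21 without that filter and 0.32 with the mean of probes; removing the filter adds undetected members. Of 2620 values for named genes 239 moved by more than the probe SD and none was counted as reversed. That count does not take in every sign change. The Hippo list median, 0.16 as reported and -0.13 with median scaling, was not counted as reversed either. No paired analysis was possible because the groups share only the replicate number 1. Precision is limited by 1 array per group and, for dim genes, by signals near the detection limit, which lay at 103 to 123 on the 4 arrays.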

Other observations

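Among the genes at least 2-fold higher in CDC73 confluent cells, 18 have provisional symbols and 8 are pseudogenes. Among those lower, 0 have provisional symbols and 1 is a pseudogene. How many measured genes in all have provisional symbols or are pseudogenes was not counted, so these numbers have no background share beside them.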
